A study of Homo sapiens with 9 samples.

Results

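The 10 genes described here encode the muscle actins and the smooth muscle contractile proteins: ACTA1, ACTA2, ACTC1, ACTG2, TPM1, TAGLN, CNN1, CNN2, MYLK and MYL9. They were taken by gene name from a deposited table of 60671 genes, and each name had 1 row. RNA was measured in AC16 cells, a line made by fusing adult human ventricular heart cells with a fibroblast line. Of 9 libraries, 3 came from cells in high glucose that also received chrysin, a plant flavonoid, 3 from cells in high glucose alone, and 3 from cells in low glucose. No source used here gives the glucose concentrations, the chrysin dose, the solvent, the duration or whether replicates were separate cultures, and all cells come from 1 line. Expression is in FPKM, fragments scaled both to transcript length and to library size. No source used here gives those lengths. Comparisons of level between different genes, and shares within a family, rest on lengths that were not checked.

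Actin filaments and myosin form the force-producing apparatus of muscle, and each muscle type uses its own actin: ACTA1 in skeletal muscle, ACTC1 in heart, ACTA2 in vascular smooth muscle and ACTG2 in enteric smooth muscle. In smooth muscle and in contractile fibroblasts, phosphorylation of the myosin regulatory light chain MYL9 by the calcium and calmodulin dependent kinase MYLK turns contraction on, while tropomyosin, calponins and transgelin bind along the actin filament. Many of these genes are textbook targets of serum response factor, SRF, and its actin-sensing MRTF cofactors, which bind a promoter element called the CArG box. ACTA2 is also the usual marker of myofibroblasts, and foetal heart cells are known to express it.

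The CArG boxes near the start sites are shown because they are the sequence feature this family is known to share. Of the 10 genes, 8 matched a RefSeq promoter entry on GRCh38.p14, TAGLN and MYL9 being the exceptions, and the 250 bases before each annotated start were searched on both strands. The pattern of the box is the same on either strand (CC, then a run of A or T, then GG), and the box is in capitals here with 10 flanking bases on each side.
ACTC1: gcgaaggggaCCAAATAAGGcaaggtggca
ACTG2 upstream box: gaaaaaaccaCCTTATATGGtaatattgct
ACTG2 downstream box: cgtcagctggCCTTTTTAGGgactttgttt
CNN2: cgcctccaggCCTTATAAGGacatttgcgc
MYLK: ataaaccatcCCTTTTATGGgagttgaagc
ACTA1: tgcccaacacCCAAATATGGctcgagaagg
ACTA2, 1 letter off: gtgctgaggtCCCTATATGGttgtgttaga
On GRCh38.p14 these stretches lie at chr15:34795639-34795668 on the minus strand (ACTC1), chr2:73892888-73892917 and chr2:73892925-73892954 on the plus strand (ACTG2) and chr19:1026509-1026538 on the plus strand (CNN2). The others lie on the minus strand of chr3:123620623-123620652 (MYLK), chr1:229434172-229434201 (ACTA1) and chr10:88952875-88952904 (ACTA2). An exact box stood in 1.16% of the 35116 promoter windows of this length, and a box with at most 1 G or C among its middle letters in 7.04%. The windows searched for CNN1 and TPM1 held neither form. The MYLK start lies far inside that gene, and the TPM1 start and the start of the ACTA2 box shown also lie inside their genes. No window at the outer end of MYLK or TPM1 was searched. Another ACTA2 window, before the start at chr10:88991337 at the outer end of the gene, held neither form. Nor did the other ACTC1 windows, before starts at chr15:34794908 and chr15:34794117. Exons of GENCODE 29 covered all 250 bases of the MYLK and TPM1 windows and of that other ACTA2 window. They covered 177 bases of the window with the ACTC1 box and 134 of the CNN1 window. For the other boxes shown, they covered 64 bases in ACTG2, 27 in CNN2, 4 in ACTA1 and 0 in ACTA2. All exact boxes found are shown, and 1 box that is 1 letter off, for ACTA2, which had no exact box. Further boxes 1 letter off are not shown. They began 71 bases before the same ACTA2 start, 237, 200 and 149 before the ACTC1 start of the exact box, and 224 and 178 before the ACTA1 start. A match describes these letters only.

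Whole reads, recovered from the size of the steps between FPKM values, totalled 18171842 to 23024300 per library. The share of reads from mitochondrially encoded genes was 3.80% to 3.89% in chrysin libraries, 2.80% to 3.04% in high glucose libraries and 2.79% to 2.90% in low glucose libraries. Of the high glucose libraries, number 1 stood apart: its log2 difference from the other two had an SD of 0.107 and 0.120 over 4053 well-covered genes, against 0.0598 to 0.0671 in the other replicate pairs. The counts of the 10 genes called in each comparison were the same without it. Genes averaging at least 0.5 FPKM in 1 group or more were tested in 1 limma fit on log2(FPKM + 0.5), and called at a Benjamini-Hochberg adjusted p under 0.05 over all of them. The line was labelled a cardiomyocyte line, but 19 of 24 sarcomere genes of heart and skeletal muscle were under 0.5 FPKM in every group, with MYH6, MYH7, TNNT2, MYL2, MYBPC3 and TTN at or near 0. Of the summed level of that list, 111 to 116 FPKM in chrysin, 132 to 151 in high glucose and 128 to 131 in low glucose libraries, most came from TNNT1, the slow skeletal troponin T. All 12 fibroblast markers listed were expressed.

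Of the 4 muscle actins, the smooth muscle actins ACTG2 and ACTA2 rose with chrysin over high glucose. ACTC1 was also called higher but passed the filter on low values only through the chrysin group, and ACTA1 was too low to test. ACTG2, the enteric smooth muscle actin at chr2:73892314-73919865 on hg38, was the main muscle actin of these cells. It measured 41.5, 42.2 and 42.3 FPKM in chrysin libraries, 18.5, 16.6 and 15.9 FPKM in high glucose libraries, and 18.6, 16.5 and 17.4 FPKM in low glucose libraries. Every chrysin library was thus above every other library, while the high and low glucose libraries overlapped. Chrysin raised ACTG2 by 1.28 on the log2 scale over high glucose (SE 0.06, adjusted p = 1.3e-07 in limma, 2.47-fold by means), and high glucose differed from low glucose by -0.04 (95% interval -0.18 to 0.09). In bulk RNA, a change in the share of cells expressing a gene and a change in RNA per cell cannot be told apart.

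ACTA2, the vascular smooth muscle actin at chr10:88935074-88991339, was less abundant than ACTG2. Its values were 10.2, 8.49 and 9.47 FPKM in chrysin libraries, 3.13, 2.52 and 1.95 FPKM in high glucose libraries, and 3.16, 2.95 and 2.87 FPKM in low glucose libraries. The chrysin libraries stood apart from all 6 others, while the high and low glucose libraries overlapped. High glucose differed from low glucose by -0.22 on the log2 scale (95% interval -0.52 to 0.07, adjusted p = 0.27 in limma). The rise over high glucose was 1.72 on the log2 scale (SE 0.13, adjusted p = 3e-06 in limma), or 3.70-fold by means, with 142 to 188 reads per chrysin library against 34 to 57 per high glucose library. ACTA2 overlaps STAMBPL1 and FAS on the other strand, and no source used here says if the counting was stranded. STAMBPL1 went the other way, at 7.66 FPKM in chrysin and 9.77 FPKM in high glucose on average (log2 difference -0.33, adjusted p = 0.0035), and FAS averaged 2.68 FPKM in chrysin and 2.62 FPKM in high glucose (log2 difference 0.04, adjusted p = 0.85).

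ACTC1, the cardiac actin at chr15:34788095-34795726, had the largest fold change of the 10 genes but from a low level. It measured 5.43, 4.77 and 4.28 FPKM in chrysin libraries (94 to 105 reads), 0.373, 0.453 and 0.341 FPKM in high glucose libraries (7 to 11 reads), and 0.545, 0.261 and 0.348 FPKM in low glucose libraries (5 to 12 reads). The log2 change from high glucose was 2.58 (SE 0.16, adjusted p = 7.7e-07 in limma), and the ratio of means was 12.4. At so low a level the log2 change depends on the pseudocount added to FPKM: it was 2.06 with 1 and 3.33 with 0.1, against 2.58 with the 0.5 used throughout. Since only the chrysin group brought ACTC1 past the filter, it could hardly have been tested without being higher there. ACTA1, the skeletal actin at chr1:229431245-229434098, was not tested: it had 1 to 4 reads in chrysin libraries, 0 to 3 in high glucose libraries and 0 to 2 in low glucose libraries.

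**Figure D1:**
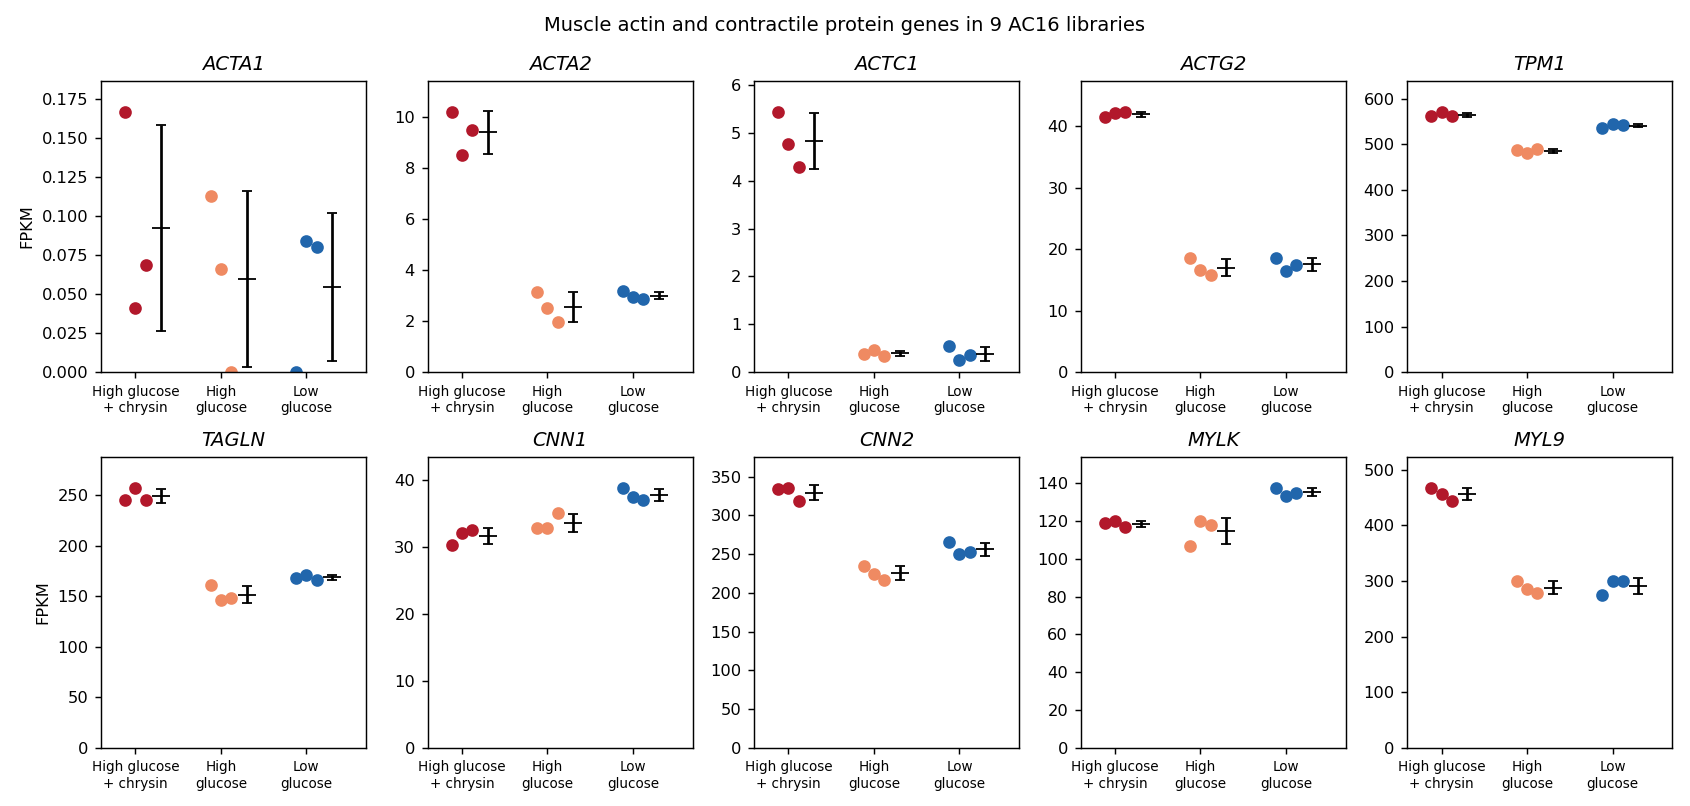
FPKM of the 10 genes in each of the 9 libraries, 1 panel a gene with a linear axis from 0; points are libraries, and black marks with whiskers are group means ± SD (n = 3). ACTA2, ACTC1, ACTG2, TPM1, TAGLN, CNN2 and MYL9 have all 3 chrysin points above all 6 others, whereas CNN1 and MYLK have their highest points in low glucose.

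The proteins that bind along the actin filament fell into 2 sorts. TAGLN (transgelin, an early smooth muscle marker, chr11:117199321-117204782) and CNN2 (the calponin of non-muscle and smooth muscle cells, chr19:1026581-1039068) were higher with chrysin than in any other library, whereas CNN1 (the smooth muscle calponin, chr19:11538717-11550323) was highest in low glucose. TAGLN measured 245, 257 and 245 FPKM in chrysin libraries, 161, 146 and 148 FPKM in high glucose libraries, and 169, 171 and 167 FPKM in low glucose libraries. CNN2 measured 335, 336 and 318 FPKM in chrysin libraries, 235, 224 and 217 FPKM in high glucose libraries, and 266, 250 and 253 FPKM in low glucose libraries. For both genes the 3 groups did not overlap, with chrysin highest and high glucose lowest. TAGLN rose by 0.72 on the log2 scale with chrysin over high glucose (SE 0.04, adjusted p = 2.5e-07 in limma) and CNN2 by 0.55 (SE 0.04, adjusted p = 1.2e-06). In high glucose, CNN2 was lower than in low glucose by 12% (adjusted p = 0.005) and TAGLN by 10.1% (adjusted p = 0.014). The TAGLN call is thin, since its adjusted p was 0.053 with high glucose library 2 left out and 0.05 with low glucose library 2 left out. PCSK7, which overlaps TAGLN on the other strand, averaged 30.1 FPKM in chrysin and 25.3 FPKM in high glucose (log2 difference 0.24, adjusted p = 0.00097).

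CNN1 measured 30.4, 32.2 and 32.6 FPKM in chrysin libraries, 32.9, 32.9 and 35.1 FPKM in high glucose libraries, and 38.9, 37.5 and 37.1 FPKM in low glucose libraries. Each chrysin value was thus just under each high glucose value, and the difference did not pass the test: it was -0.08 on the log2 scale (95% interval -0.18 to 0.01, adjusted p = 0.15 in limma). Both high glucose groups were under low glucose, chrysin by 0.25 on the log2 scale (adjusted p = 0.00062) and high glucose alone by 0.17 (adjusted p = 0.017). The second of these calls was lost without high glucose library 2 (adjusted p = 0.059) or without low glucose library 1 (adjusted p = 0.066).

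TPM1, the tropomyosin chain shared by all muscle types (chr15:63042632-63071915), had the highest FPKM of the 10 genes. Its level was 563, 571 and 562 FPKM in chrysin libraries, 488, 480 and 489 FPKM in high glucose libraries, and 537, 544 and 543 FPKM in low glucose libraries. The groups did not overlap. High glucose was 10.3% under low glucose (adjusted p = 0.00037), and chrysin was above high glucose by 0.22 on the log2 scale (SE 0.02, adjusted p = 9.5e-06). The level with chrysin was also above low glucose, by 0.06 on the log2 scale (adjusted p = 0.023), but that call was lost under median-of-ratios scaling (0.0051, adjusted p = 0.86) and with any chrysin library, low glucose library 1 or low glucose library 3 left out (adjusted p = 0.05 to 0.086).

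In the pair that regulates myosin, the light chain rose with chrysin, and the kinase was lower in both high glucose groups than in low glucose. MYL9, the regulatory light chain of smooth muscle myosin (chr20:36541484-36551447), measured 467, 457 and 444 FPKM in chrysin libraries, 300.3, 285 and 279 FPKM in high glucose libraries, and 275, 299.8 and 299 FPKM in low glucose libraries. Chrysin raised MYL9 by 0.66 on the log2 scale over high glucose (SE 0.04, adjusted p = 5.6e-07 in limma), or 1.59-fold, whereas high and low glucose overlapped (-0.02, 95% interval -0.10 to 0.07). MYLK, the kinase that phosphorylates it (chr3:123610049-123884331), measured 119, 119.9 and 117 FPKM in chrysin libraries, 107, 119.9 and 118 FPKM in high glucose libraries, and 138, 133 and 135 FPKM in low glucose libraries. All 6 high glucose libraries, with or without chrysin, were under all 3 low glucose libraries. Relative to low glucose, MYLK was 15.0% lower in high glucose (adjusted p = 0.002) and lower by 0.19 on the log2 scale with chrysin (adjusted p = 0.0024), while chrysin and high glucose differed by 0.05 on the log2 scale (95% interval -0.04 to 0.14, adjusted p = 0.37). That difference turned to -0.0036 without high glucose library 1, which held the lowest MYLK value.

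By comparison, then, 7 of the 9 genes tested were higher and 0 lower in chrysin than in high glucose, where 24.9% of all 16996 genes tested were called higher and 20.9% lower (45.8% in all). The groups did not overlap for 8 of the 9, as for 54.3% of all genes tested. The median log2 change of the 9 was 0.66, against 0.03 over all genes tested, and the middle 90% of all genes lay between -0.63 and 0.75. Leaving out ACTC1, the 8 genes that averaged at least 0.5 FPKM in every group gave 6 higher and 0 lower, with a median of 0.61. ACTA2 and ACTG2 ranked 51 and 175 from the top of the fold changes of all genes. Between high and low glucose, 0 of the 9 were called higher and 5 lower (TPM1, TAGLN, CNN1, CNN2 and MYLK), where 8.91% of all genes were called lower and 14.6% higher (23.5% in all). The median there was -0.16, against 0.02 over all genes. Without high glucose library 2, 3 of the 5 were called.

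Set against low glucose, chrysin was higher in 7 genes and lower in 2 (CNN1 and MYLK), with 29.7% of all genes called higher and 21.3% lower (51.0% in all). ACTC1 is among the 7 but passed the filter only through the chrysin group. Leaving it out, 6 of 8 were higher and 2 lower. For TAGLN and CNN2 the level with chrysin passed that of low glucose by 0.56 and 0.36 on the log2 scale (adjusted p = 8.4e-07 and 1.4e-05). ACTA2, ACTC1, ACTG2 and MYL9 differed from low glucose by 1.5, 2.60, 1.24 and 0.65 on the log2 scale with chrysin, against -0.22, 0.02, -0.04 and -0.02 without it, none of the second set being called. These comparisons share libraries, so their values are given side by side and not as independent evidence.

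**Figure D2:**
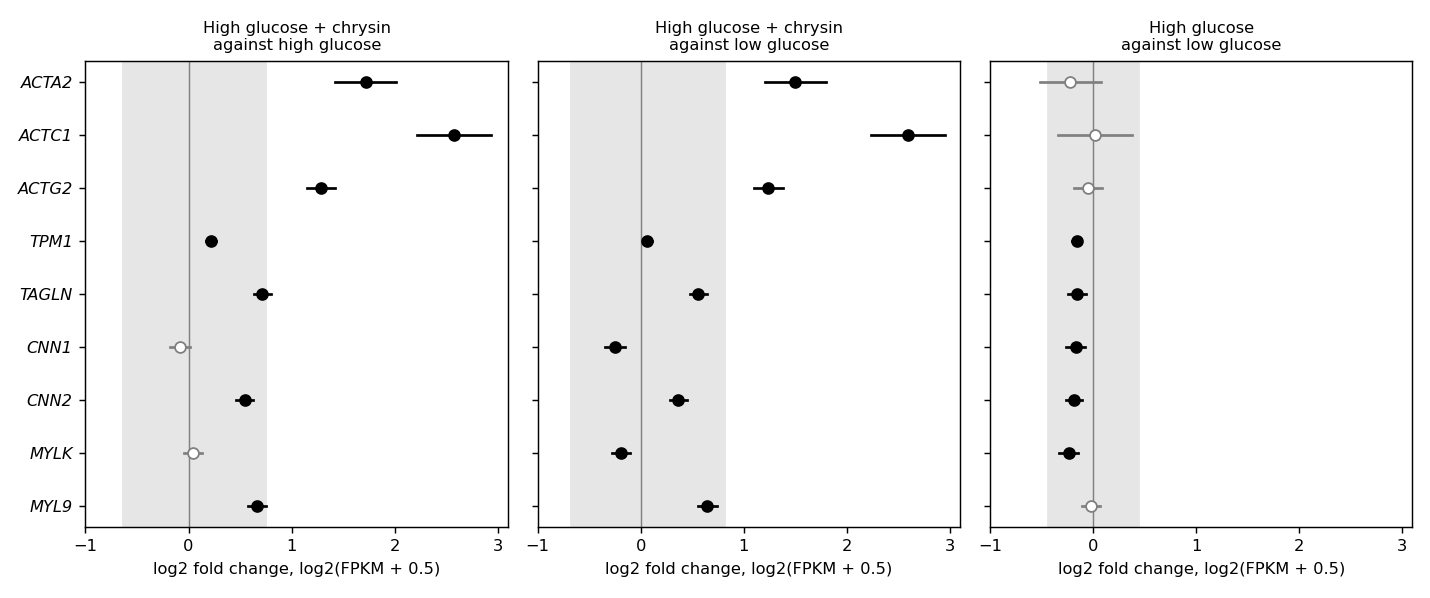
Log2 fold changes of the 9 genes tested with 95% intervals, on log2(FPKM + 0.5), in the 3 comparisons; filled points are called genes, and grey bands hold the middle 90% of all genes tested. For chrysin against high glucose, 7 intervals lie above 0 and those of CNN1 and MYLK include it; for high against low glucose, 5 lie below 0.

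The order of levels over all 9 libraries was TPM1 (mean 531 FPKM), MYL9 (345), CNN2 (270), TAGLN (190), MYLK (123), CNN1 (34.4), ACTG2 (25.5), ACTA2 (4.97), ACTC1 (1.87) and ACTA1 (0.0689). By FPKM, 1 pair of neighbours traded places between groups: ACTG2 was above CNN1 in every chrysin library and under it in all others. By whole reads, MYL9 was above TPM1 in each chrysin library (16331, 16266 and 18777 against 13946, 14397 and 16840). TPM1 was above MYL9 in all others.

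The make-up of several actin-associated families differed with chrysin. The 4 muscle actins together summed to 56.3 FPKM in chrysin, 19.96 in high glucose and 20.9 in low glucose, which was 0.715% ± 0.0096, 0.244% ± 0.014 and 0.227% ± 0.010 of all actin FPKM (SD, n = 3 each). The cytoplasmic actins made up the rest. ACTB, the larger, averaged 5245 FPKM in chrysin and 5524 FPKM in high glucose (log2 difference -0.07, adjusted p = 0.093). It was called lower by limma voom (adjusted p = 0.011), after GC and length correction (0.017), after median-of-ratios scaling (0.029) and without high glucose library 3 (0.032). ACTG1 averaged 2567 FPKM in chrysin and 2631 FPKM in high glucose (-0.04, adjusted p = 0.28). Inside the muscle actins, ACTC1 took 8.57% of the FPKM in chrysin, 1.96% in high glucose and 1.81% in low glucose, while ACTG2 took 74.6%, 85.2% and 83.6% in the same order.

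The calponin and transgelin families shifted between paralogs. CNN2 made up 54.3% of calponin FPKM in chrysin, 39.3% in high glucose and 42.9% in low glucose. CNN3, the non-muscle calponin, was lower in chrysin than in high glucose by 0.36 on the log2 scale (245 FPKM in chrysin against 314 FPKM in high glucose, adjusted p = 3.8e-06). TAGLN made up 34.8% of the 2 expressed transgelins in chrysin, 21.4% in high glucose and 25% in low glucose. TAGLN2, the broadly expressed paralog, was lower with chrysin by 0.25 (467 FPKM in chrysin against 557 FPKM in high glucose, adjusted p = 0.00011). Among myosin light chains, MYL9 took 23.8% in chrysin, 19.4% in high glucose and 19.7% in low glucose. Its non-muscle relative MYL12A rose alongside it, by 0.71 (671 FPKM in chrysin against 411 FPKM in high glucose, adjusted p = 3.1e-08). MYLK supplied 98.5%, 99.0% and 99.4% of the FPKM of its kinase family in chrysin, high glucose and low glucose.

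**Figure D3:**
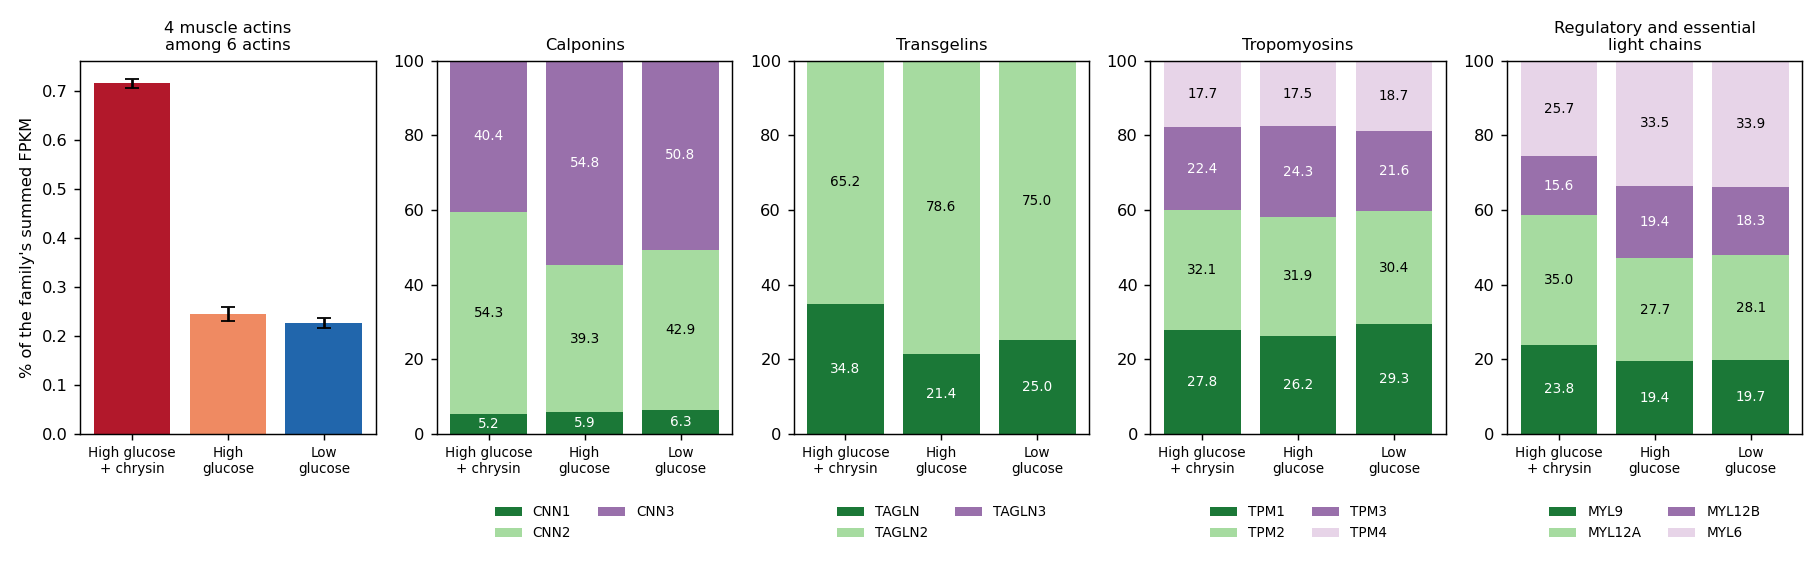
Share of each gene in the summed FPKM of its protein family, in percent, as means over the chrysin, high glucose and low glucose libraries; whiskers in the actin panel are SD (n = 3). CNN2 reaches 54.3% of calponin FPKM in chrysin against 39.3% in high glucose, and TAGLN 34.8% of transgelin FPKM in chrysin against 21.4% in high glucose.

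Between chrysin and high glucose, the rest of the contractile system held both higher and lower genes. Some genes are in more than 1 list. Over all genes tested, 24.9% were called higher and 20.9% lower in this comparison. Of 7 non-muscle actin and myosin II genes tested, 1 was higher (MYL12A) and 1 lower (MYH10, by 0.13, adjusted p = 0.019, a call lost without chrysin library 3 or high glucose libraries 2 or 3, at adjusted p = 0.059 to 0.076). Of 9 other thin-filament genes tested, 4 were higher and 2 lower: the tropomyosins TPM4 and TPM2 rose by 0.15 each (adjusted p = 0.00027 and 0.0012), and LMOD1, the smooth muscle leiomodin that nucleates actin filaments, rose by 0.80 (3.17 FPKM in chrysin, 1.62 in high glucose, adjusted p = 0.00069). TPM3, a further abundant tropomyosin, averaged 456 FPKM in chrysin and 451 FPKM in high glucose (log2 difference 0.02, adjusted p = 0.64). Of 11 further smooth muscle markers tested out of 17 listed, 6 were higher and 4 lower. SYNPO2 passed the filter only through the chrysin group and AOC3 not through low glucose; the 9 that averaged at least 0.5 FPKM in every group gave 5 higher and 4 lower, with a median of 0.13. ACTN1, the actin crosslinker, rose by 0.36 (769 FPKM in chrysin, 598 in high glucose, adjusted p = 8.7e-07), CSRP1, a smooth muscle LIM protein, rose by 0.46 (adjusted p = 9.4e-07), and AOC3, an amine oxidase of smooth muscle and fat, rose by 1.53 (adjusted p = 4.4e-05). PPP1R14A, the phosphorylation-dependent inhibitor of myosin phosphatase in smooth muscle, fell by 1.26 (2.09 FPKM in chrysin, 5.70 in high glucose, adjusted p = 2.8e-05), and DES, the muscle intermediate filament, fell by 0.71 (adjusted p = 0.0008). MYH11, the smooth muscle myosin heavy chain, was too low to test, at 0.282 ± 0.043 FPKM in chrysin, 0.0377 ± 0.045 in high glucose and 0.0607 ± 0.022 in low glucose (SD, n = 3 each).

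Among the regulators, MYOCD, the myocardin cofactor that drives smooth muscle genes with SRF, fell by 0.90 with chrysin (1.36 FPKM in chrysin against 2.96 in high glucose and 2.95 in low glucose, adjusted p = 8.8e-05). SRF rose by 0.47 (21.5 FPKM in chrysin against 15.4 in high glucose, adjusted p = 5.1e-05), and high glucose was under low glucose by 0.27 (15.4 FPKM in high glucose against 18.6 FPKM in low glucose, adjusted p = 0.0053). Across the SRF and MRTF list, 2 of 14 tested were higher in chrysin than in high glucose and 7 lower. The lower ones numbered 5 to 7 over all alternatives. Over all genes tested, 24.9% were higher and 20.9% lower. The other higher one in the list was the cofactor MRTFB (0.25, adjusted p = 0.011). The lower ones included the transcription factors GATA6 (by 1.0, adjusted p = 2e-06), FOXO4 (by 0.91, adjusted p = 3.6e-05) and ELK3 (by 0.56, adjusted p = 7.8e-06). In the list on light chain phosphorylation, 4 of 21 tested were higher and 6 lower, which is near the 45.8% called over all genes tested. PPP1R12C, a targeting subunit of myosin phosphatase, was up by 0.54 (adjusted p = 1.5e-06) and the RhoA exchange factor ARHGEF2 down by 0.31 (adjusted p = 5.3e-05). The count of higher genes in that list was 1 with chrysin library 1 or 3 left out, and 2 if high glucose library 2 or 3 or any low glucose library was left out instead. Focal adhesion and actin crosslinking genes gave 9 higher and 4 lower of 16: FLNA (filamin A) rose by 0.53 (1437 FPKM in chrysin, 997 in high glucose, adjusted p = 3e-08) and ACTN4 by 0.52 (adjusted p = 1.9e-06). The count of lower genes in that list was 2 when chrysin library 1 or 2 or high glucose library 1 or 2 was left out.

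Listed cell type markers also moved in the same comparison, in which 24.9% of all genes tested were called higher and 20.9% lower. A fibroblast line is 1 parent of these cells. The 12 fibroblast markers summed to 6377 to 6540 FPKM in chrysin libraries, 9105 to 9576 FPKM in high glucose libraries and 7710 to 8007 FPKM in low glucose libraries, and 0 of them were higher and 9 lower with chrysin than with high glucose. The largest part of these sums was COL1A1, averaging 2899 FPKM in chrysin, 5138 in high glucose and 3707 in low glucose. FAP fell by 1.46 and LUM by 1.44 on the log2 scale (adjusted p = 3.1e-09 each), and COL1A2 fell by 0.76 and COL1A1 by 0.82 (adjusted p = 6.6e-09 and 6.6e-08). The 5 epithelial markers summed to 235 to 246 FPKM in chrysin, 335 to 365 in high glucose and 304 to 319 in low glucose, of which 2 of 4 tested were lower with chrysin, KRT18 by 0.58 and KRT8 by 0.39. KRT18 and KRT8 made up most of that sum. Of 5 sarcomere genes tested, MYL3 and TNNC2 passed the filter only through the chrysin group, and of the other 3, 1 was higher and 2 lower, DES being one of these: MYH3, the embryonic skeletal myosin, rose by 0.85 (adjusted p = 0.0005), and TNNT1 fell by 0.32 (adjusted p = 0.00015). Both endothelial markers tested were lower, TIE1 by 0.80 and TEK by 0.45 (adjusted p = 0.046, and up to 0.13 with 1 library left out), as was 1 of 2 blood markers, CD14 by 0.85. The part of these shifts, and of the mitochondrial read share, in the changes of the contractile genes was not tested.

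**Figure D4:**
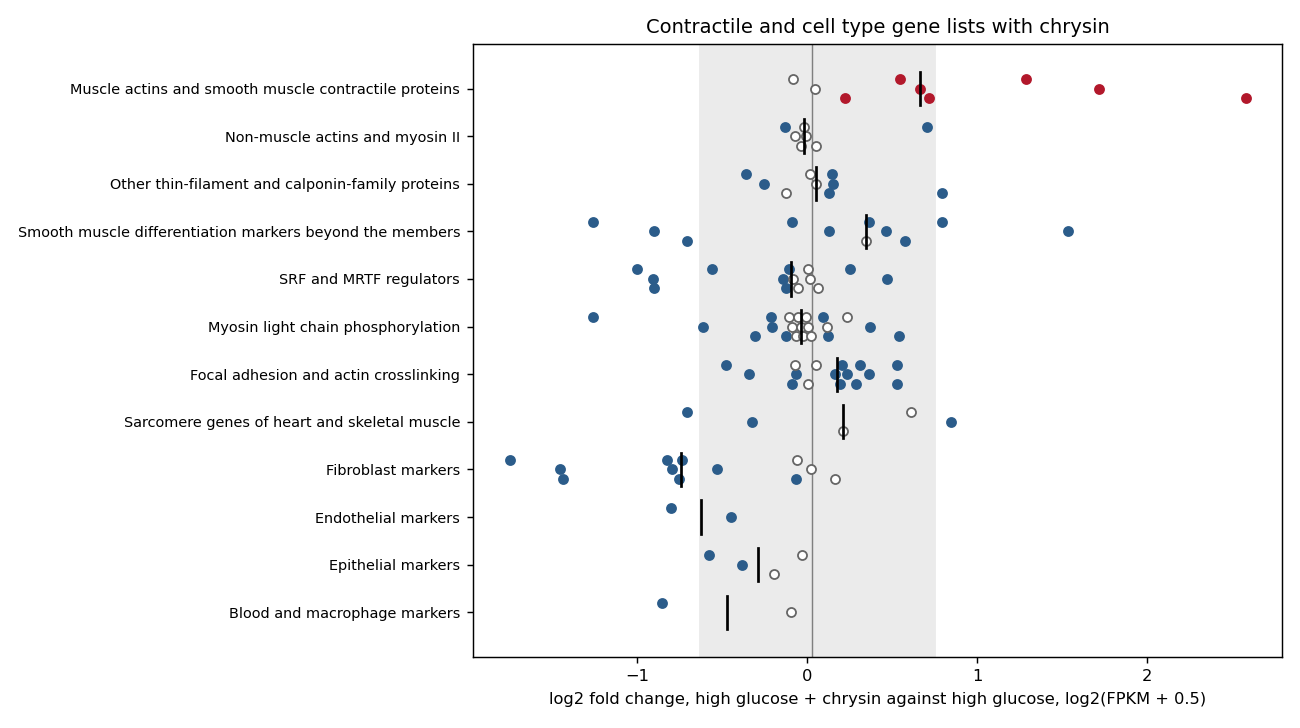
Log2 fold change of each tested gene in chrysin against high glucose, by gene list, with filled points for called genes, open points for the others and black bars for medians; the grey band holds the middle 90% of all genes tested. ACTC1, SYNPO2, MYL3 and TNNC2 are plotted only through the chrysin group. The muscle actin and contractile genes have a median of 0.66 (0.61 without ACTC1), the SRF and MRTF list has a median of -0.10, and the fibroblast markers one of -0.75.

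Between high and low glucose, relatives of the 5 lower genes were called in both directions. TPM3, a paralog of TPM1, was higher in high glucose by 0.17 on the log2 scale (451 FPKM in high glucose, 399.5 FPKM in low glucose, adjusted p = 0.001), and TAGLN2, the paralog of TAGLN, by 0.14 (557 FPKM in high glucose, 507 FPKM in low glucose, adjusted p = 0.013, or 0.052 with low glucose library 3 left out). TPM4 was lower in high glucose by 0.09 (adjusted p = 0.014, or 0.053 with low glucose library 2 left out). ACTG1 was lower in high glucose by 0.32 on the log2 scale (2631 FPKM in high glucose, 3292 in low glucose, adjusted p = 1.6e-05), MYH9, the main non-muscle myosin heavy chain, by 0.14 (adjusted p = 0.00073), and PDLIM7 by 0.20 (adjusted p = 0.00073). FHL2, a LIM cofactor of SRF, was lower by 0.60 (adjusted p = 2.3e-06) and ARHGEF2 by 0.57 (adjusted p = 3.2e-06). SMTN (smoothelin) was higher in high glucose by 0.37 (adjusted p = 0.00022), as was VASP, which promotes actin filament growth, by 0.27 (adjusted p = 0.00024). Over all genes tested, 14.6% were called higher in high glucose and 8.91% lower (23.5% in all). By list, 0 of 7 non-muscle actin and myosin genes were higher and 3 lower. ACTB was among the 3 (lower by 0.10, adjusted p = 0.046), but its call was lost in 10 of 19 settings (adjusted p up to 0.21). Of 9 thin-filament genes, 3 were higher and 1 lower (0 without low glucose library 2). Of 11 smooth muscle markers, 2 were higher and 1 lower, as among the 9 of them that averaged at least 0.5 FPKM in every group. In the SRF and MRTF list 3 of 14 were higher and 2 lower, in the list on light chain phosphorylation 6 of 21 were higher and 1 lower, and among focal adhesion genes 4 of 16 were higher and 4 lower. Under median-of-ratios scaling the phosphorylation list gave 3 higher and 3 lower, and 7 focal adhesion genes were lower. The higher smooth muscle markers numbered 1 without high glucose library 2 or low glucose library 2 or 3, and the lower phosphorylation genes 2 without high glucose library 3.

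The genes nearest in pattern to ACTA2 were sought among 404 averaging 5 FPKM or more with a log2 range over group means of at least 0.5 times its own, by the mean absolute difference of log2 deviations over the 9 libraries. They were NUP50-DT (0.132), PPME1 (0.134), UCN (0.137), FGF1 (0.156) and TRAPPC6A (0.158). For TAGLN, 3607 genes qualified, and the nearest were RNASEH1 (0.0376), TMEM120B (0.0389), MTHFSD (0.0421), MAFG (0.0437) and PIDD1 (0.0445).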

How the data were processed

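Poly(A) RNA from 9 libraries was measured. The submitters' processing notes list the tools fastp (0.23.4), HISAT2 (2.2.1), StringTie (2.2.1) and HTSeq (0.13.5) and the build hg38, without saying which tool did which step. The authors deposited 1 FPKM value per gene and library; the unit was read from the values, since no header names it. No source used here gives the annotation, strandedness or read length. Sums of FPKM ran from 690850.7 to 704369.9. For each gene the values were multiples of the worth of 1 read, and reads came out whole for 100% of the 28230 genes detected in at least 2 libraries (tolerance 0.01 reads).

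The filter kept 16996 genes that averaged 0.5 FPKM or more in at least 1 group. On log2(FPKM + 0.5), limma (3.58.1, under R 4.3.3) was fitted to all libraries together with its mean-variance trend and no block. Two-sided contrasts were adjusted by Benjamini-Hochberg over all genes tested, and called under 0.05. Fold changes on this scale understate those of low genes. Nothing states that replicates were separate cultures, so p-values measure only how far these libraries scatter, which may be technical.

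All 10 genes are named whatever their value, and from each list up to 4 genes with the smallest p; 1 list gene is not reported here. The genes and lists were chosen with earlier results of these data known. Positions and overlaps are from GENCODE 29. At most 1.81% of the 50-base words of any of the 10 genes (ACTA1) also occur in another gene. Results were recomputed with a pseudocount of 0.1 or 1, without the filter or with one of 5 FPKM, after median-of-ratios scaling, by limma voom on the whole reads, with a replicate block, on only the groups compared, after a loess correction for GC content and length (known for 98.2% of genes tested), and without each library in turn. Counts over genes that averaged 0.5 FPKM or more in every group were added after seeing the data.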

Additional observations from a re-analysis of the deposited data

How the results depend on the processing

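For chrysin against high glucose, 6 to 7 of the 10 genes were called over all alternatives and 7 with each library left out in turn; for chrysin against low glucose 8 to 9; for high against low glucose 3 to 5, with 3 without high glucose library 2. Same-numbered libraries deviated together by correlations of -0.136 to 0.0854, which show no pairing by number but cannot exclude it. With the replicate block, 5, 7 and 9 genes were called for high against low glucose, chrysin against high glucose and chrysin against low glucose. Small uncalled differences changed sign when 1 library was left out. Between high and low glucose, ACTC1 ran from -0.085 to 0.14 and gave -0.03 with high glucose library 2 left out, -0.085 with low glucose library 2 left out and -0.01 with low glucose library 3 left out. ACTG2 ran from -0.11 to 0.0015, its value without high glucose library 3. MYL9 ran from -0.058 to 0.0064, reached without high glucose library 3, with 0.0045 without low glucose library 2 and 0.0032 without low glucose library 3. Between chrysin and high glucose, MYLK ran from -0.0036 without high glucose library 1 to 0.078 without high glucose library 2. The causes were not tested. The calls of TAGLN and CNN1 between high and low glucose, and of TPM1 between chrysin and low glucose, were lost under the settings given with those genes. ACTC1 could not be tested for high against low glucose in a fit of those groups or at 5 FPKM. Depth limits ACTA1 and the glucose comparison of ACTC1, which rest on at most 12 reads per library.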
